A study of Arabidopsis thaliana with 6 samples.

Results

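Calcium-binding EF-hand and calmodulin-related genes were described in seedlings of Arabidopsis thaliana by comparing the sams3 mutant with L119, a transgenic line that served as wild type. Genes were taken from the authors' lists of up- and down-regulated genes where the deposited description held an EF-hand domain accession (IPR011992 or IPR002048) or the word calmodulin. Genes whose description held a protein kinase-like, WRKY or FAD-linked oxidase domain accession (IPR011009, IPR003657 or IPR006094) or the word transporter were left out. This rule gave 14 genes of the 1336 listed, of which 8 carried an EF-hand accession and 6 were found through the word calmodulin alone.

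The sams3 seedlings carry a mutation in S-adenosylmethionine synthetase 3, one of the enzymes that make the methyl donor S-adenosylmethionine. Both genotypes have the label L119 for ecotype, so the mutant shares that line's background, and the labels do not say what the transgene is. RNA came from whole seedlings at 15 days, with 2 libraries of sams3 and 2 of L119. Both had the same growth conditions, on plates of 0.8% agar with sucrose at 20 g/L, at 22 °C with 23 h of light a day. Whether the 2 libraries of a genotype were grown separately is not in the labels, and the spread behind the authors' p-values may be technical. The labels also do not say which kind of mutation sams3 is or how many plants were pooled.

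Calcium enters the cytosol of plant cells in brief pulses after cold, touch, wounding or attack, and is then pumped or exchanged out again. EF-hand proteins read these pulses: a helix-loop-helix fold binds the ion, and the protein changes shape and its partners. Calmodulin and the calmodulin-like (CML) proteins are such sensors with no enzyme activity of their own, calcineurin B-like (CBL) proteins pass the signal to kinases of the CIPK family, and proteins with calmodulin-binding segments act further on.

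The values are log2 fold changes, sams3 over L119, from the authors' deposited table, in which a positive value means more transcript in sams3. The authors kept genes that changed at least 2-fold with p below 0.0001, so every listed gene has already passed that threshold and a gene outside the lists is called not listed, never unchanged. No values per library, standard errors or depths were used. In whole seedlings a change in the share of a cell type and a change in transcript per cell cannot be told apart, and without expression levels the seedling label could not be checked against tissue markers. SAMS3 (AT3G17390) itself is in neither list, so the mutant label could not be checked against its own transcript.

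Most of these genes were higher in sams3. Of the 14, 13 were higher and 1 was lower in the authors' deposited table, that is 92.9% higher, whereas 66.9% of all 1336 listed genes were higher and 33.1% lower. The rises were moderate. The median log2 of the 13 higher genes was 1.34 in the authors' deposited table, against 1.62 for all 894 higher genes. A log2 of at least 2 was reached by 3 of the 13 (23.1%), against 32.2% of all higher genes, and the largest of them ranked only 258th of the 894 by fold. By contrast, 12 of the 13 had a p below 1e-10 (92.3%), against 72.4% of all higher genes. That cut was chosen after the data were seen. Since the lists hold only genes past the authors' thresholds and the background leans to rises, these shares are a description and were not tested.

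**Figure D1:**
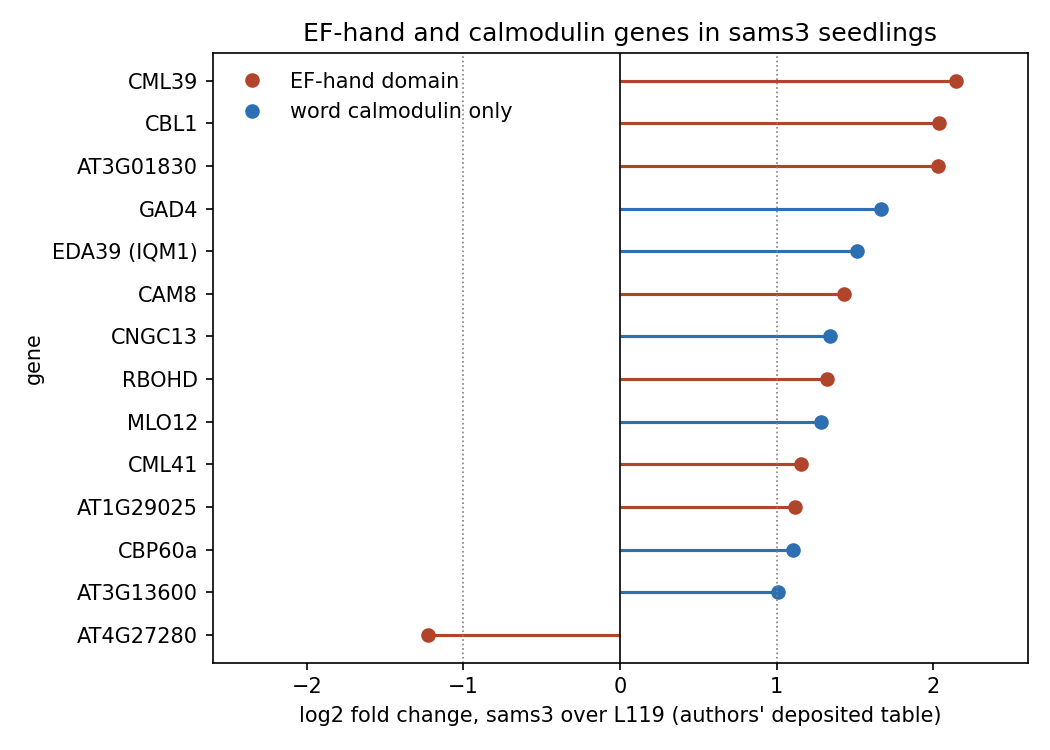
Log2 fold change, sams3 over L119, of the 14 genes in the authors' deposited table, with dotted lines at the 2-fold threshold. Red points carry an EF-hand accession and blue points were found through the word calmodulin. CML39, CBL1 and AT3G01830 lie above 2, and AT4G27280 is the one gene left of 0, at -1.22.

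Among the EF-hand sensors, 3 had the largest rises of the group. CML39 (AT1G76640), a calmodulin-like protein known for a role in seedling establishment, stood at a log2 of 2.14 in the authors' deposited table, 4.42 times its L119 level (p = 2.76e-27). CBL1 (AT4G17615), a calcium sensor anchored at the plasma membrane that works with CIPK kinases in potassium uptake and in stress responses, stood at 2.04, 4.11 times its L119 level, in the authors' deposited table (p = 8.57e-160). AT3G01830, an EF-hand protein without a symbol in the reference, followed at 2.03 in the authors' deposited table (p = 2.40e-44). These 3 genes thus had folds of nearly the same size. Their p-values lay far apart, and CBL1 ranked 39th of the 894 higher genes by p.

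The other higher EF-hand genes rose by smaller folds. CAM8 (AT4G14640), also named CML8, a calmodulin-like sensor with a known part in immunity to bacteria, had a log2 of 1.43 in the authors' deposited table. Its p of 1.00e-05 was the largest of the group and ranked 837th of the 894 higher genes. By that p alone its rise is the least certain, though the spread behind the p may be technical. RBOHD (AT5G47910), the NADPH oxidase that makes the burst of reactive oxygen in defence and has EF-hands in its cytosolic part, stood at 1.32 in the authors' deposited table (p = 8.19e-113). CML41 (AT3G50770), known to act at plasmodesmata, the channels between cells, stood at 1.15 (p = 3.56e-14) in the authors' deposited table. The unnamed EF-hand gene AT1G29025 had 1.11 (p = 1.42e-14) in the authors' deposited table. Together the 7 higher EF-hand genes had a median log2 of 1.43.

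AT4G27280 was the gene that fell. Its log2 in the authors' deposited table was -1.22, so that L119 had 2.33 times the level in sams3 (p = 1.62e-73). Its p ranked 49th of the 442 lower genes, whereas its fold ranked 251st. The deposited description names PBP1, a small EF-hand protein that binds the kinase PINOID, as its closest relative, and lists a response to karrikin, a smoke compound that promotes germination. It is also 1 of 2 EF-hand genes here, with RBOHD, whose description gives IPR011992 without IPR002048.

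Genes found through the word calmodulin were all higher, 6 of 6, where 66.9% of all listed genes were higher. With so few genes this is not a result about them. Their log2 in the authors' deposited table had a median of 1.31 and a range of 1.01 to 1.67. The median of all higher genes was 1.62. The 6 genes code for proteins of different kinds that bind calmodulin or are annotated as doing so. GAD4 (AT2G02010), a glutamate decarboxylase, an enzyme that makes the amino acid GABA and is switched on by calmodulin, stood at 1.67 (p = 2.94e-31) in the authors' deposited table. EDA39 (AT4G33050), also named IQM1 for its calmodulin-binding IQ motif, stood at 1.51 in the authors' deposited table, with the second smallest p of the 14 (4.68e-118). CNGC13 (AT4G01010), of the family of cyclic nucleotide-gated ion channels that calmodulin regulates, stood at 1.34 (p = 6.64e-45) in the authors' deposited table.

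Members with ties to defence also lie in this set. MLO12 (AT2G39200), of the membrane protein family needed by powdery mildew fungi, stood at 1.28 (p = 2.72e-26) in the authors' deposited table. CBP60a (AT5G62570), a calmodulin-binding protein known to restrain immunity, stood at 1.11 (p = 6.92e-62) in the authors' deposited table. AT3G13600, an unnamed gene with an IQ region, was the member nearest to the 2-fold threshold, with a log2 of 1.01 (p = 7.44e-12) in the authors' deposited table. The words defense response stood in the descriptions of 2 of the 14 genes, MLO12 and RBOHD, against 5.46% of all listed genes. A plasma membrane location was given for 3 of the 14, CBL1, RBOHD and MLO12, against 5.54% of all listed genes. Counts this small were not tested. No known process is named in 7 of the 14 descriptions, and the share over all listed genes is not given here, so this count is not a result about the group.

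**Figure D2:**
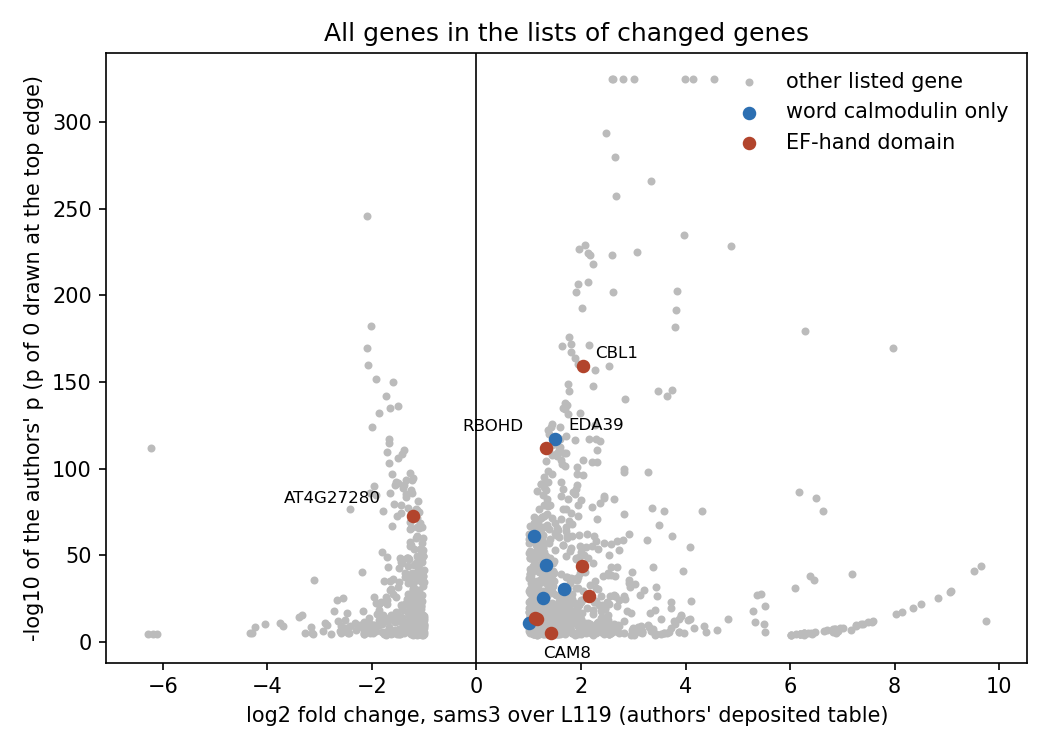
Each point is 1 of the 1336 listed genes, by log2 fold change, sams3 over L119, and by -log10 of the p in the authors' deposited table; 7 genes with a p of 0 are drawn at the top edge. The 14 coloured genes lie between -1.22 and 2.14 on the fold axis, inside the range of -6.28 to 9.74 of all listed genes, with CBL1 highest among them.

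The closest relatives of these genes were outside the lists. Each of the 14 descriptions names the most similar Arabidopsis protein, which gives 12 different relatives. For 0 of the 14 genes the relative was itself listed, against 23.5% of the 1202 listed genes with a relative named. CML38 (AT1G76650) is the relative named for 3 of the higher genes, CML39, AT3G01830 and CML41, and is not listed. The same holds for CBL9, the relative of CBL1, for CML11, that of CAM8, for RBOHC (also RHD2), that of RBOHD, for MLO2, that of MLO12, and for GAD3, that of GAD4. Relatives that missed either threshold of the authors would look the same in the lists, so these relatives are not shown to differ from the listed genes.

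The genes were spread over the genome. They lie on all 5 chromosomes, with 5 on chromosome 4, 3 on chromosome 3 and 2 on each of the others, and no member was the direct neighbour of another among protein-coding loci. For 3 of the 14 (21.4%) the closest relative is the direct neighbour, against 17.1% of listed genes with a relative named: CML39 beside CML38, GAD4 beside GAD3, and AT1G29025 beside AT1G29020. Whether reads were split between such similar genes was not tested, for these 3 or for the other members. A listed direct neighbour was found for 2 of the 14 (14.3%), against 20.0% of listed protein-coding genes. CAM8 lies beside GLP9 (AT4G14630), at 1.62 in the authors' deposited table, and MLO12 beside AT2G39210, at 1.03 in the authors' deposited table. Both neighbours were higher, as were the 2 members.

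Genes that meet the domain or word terms but were left out of the group, as kinases or through the word transporter, numbered 11. Of these, 7 were higher (63.6%) and 4 lower in the authors' deposited table, a share near the 66.9% of all listed genes, and kinases were found in both directions. Those higher included the calcium-dependent kinases CPK15 (log2 1.16) and CPK28 (1.09) in the authors' deposited table, which have a kinase and EF-hands in one protein. CPK28 is known to limit immune signalling. CNGC19, a calcium channel known from responses to wounding and herbivory, had the largest rise of the 11, at 2.24 in the authors' deposited table. The pumps ACA1 (1.34) and ACA12 (1.03) were also higher in the authors' deposited table, as was ACA13, at 2.14 times its L119 level. These pumps belong to the family of autoinhibited calcium ATPases, which move calcium out of the cytosol. ACA.l (AT1G13210), named after these pumps but annotated as a lipid flippase, stood at 1.12 in the authors' deposited table.

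Kinases of the CIPK family, the partners of CBL proteins, were lower where they were listed, whereas CBL1 was higher. CIPK20 had a log2 of -1.97 (p = 2.28e-26), CIPK25 of -1.51 (p = 7.31e-17) and CIPK5 of -1.14 (p = 7.11e-15) in the authors' deposited table. CIPK25 and CIPK5 are each named as the closest relative of the other. CIPK23, the kinase known to act with CBL1 on potassium uptake, is not among the listed genes. The fourth lower gene was PPCK2, a kinase of phosphoenolpyruvate carboxylase, at -1.16 in the authors' deposited table.

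Wider lists of calcium signalling genes were matched to the reference by symbol or alias. Of 264 names in 15 lists, 212 loci were matched, and 22 of these (10.4%) were listed, against 4.68% of the 27562 protein-coding loci in the reference. By direction, 19 were higher (8.96%, against 3.11% of protein-coding loci) and 3 lower (1.42%, against 1.57%). Of the 22, 7 were members already described, and the other 15 numbered 12 higher and 3 lower. Loci with a symbol are not a random sample of protein-coding genes, and the lists were written with results of these data known, so no test was made. For calmodulin-like genes only 14 of 50 names were matched, for CAMTA activators 3 of 6, for CBP60 and SARD1 3 of 8 and for NADPH oxidases 7 of 10, so the counts for these families are void as family counts. Their matched loci are still part of the totals of 212 and 22, so the 10.4% carries the same limit.

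**Figure D3:**
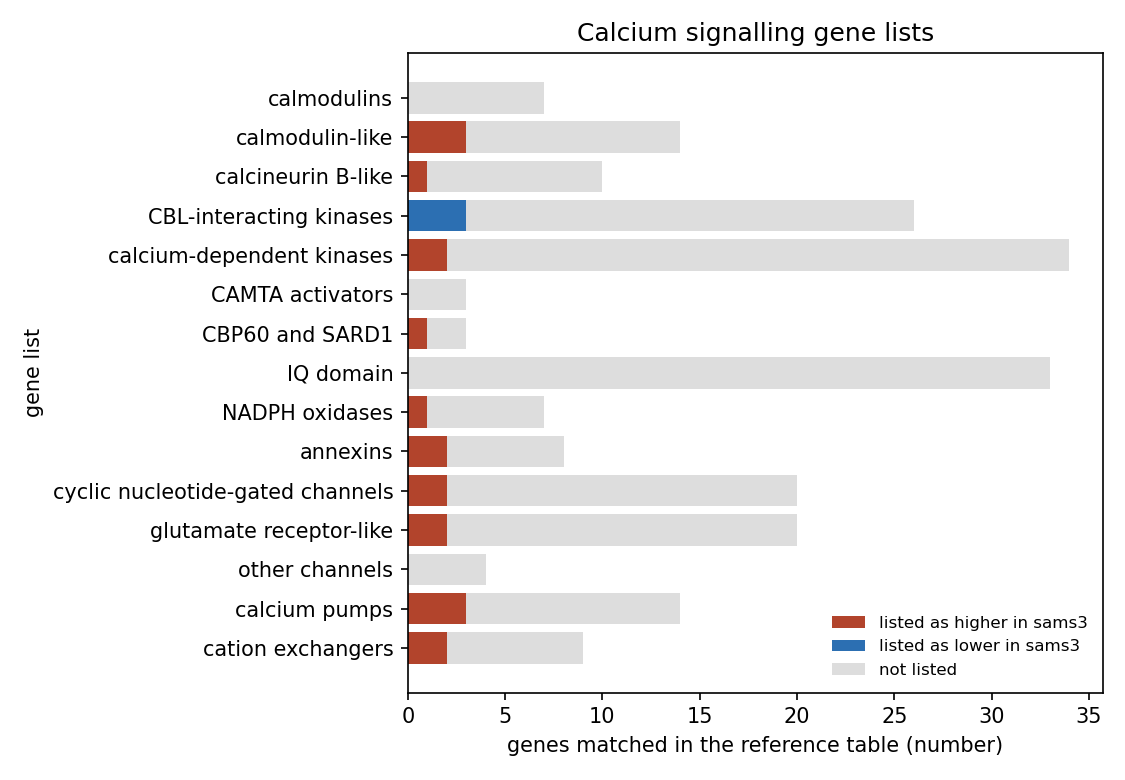
Number of genes in each of 15 calcium signalling lists that were matched in the reference and were higher in sams3, lower in sams3 or not listed in the authors' deposited table. The CBL-interacting kinases are the one list with lower genes, 3 of 26, and 10 lists have higher genes only.

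The counts by family were small and are given beside the 4.68% of protein-coding loci that were listed. By direction that background is 3.11% higher and 1.57% lower. None of the 7 calmodulin genes CAM1 to CAM7 was listed. CAM8, despite its name, is counted with the calmodulin-like proteins. At that background a count of 0 in so short a list is no result. Of 10 CBL genes, CBL1 was listed as higher and 9 were not listed. Of 34 calcium-dependent kinases, 2 were higher (5.88%) and 32 not listed, and of 26 CIPK genes 3 were lower (11.5%) and 23 not listed. None of the 33 IQ domain (IQD) genes was listed, nor were any of 4 further channels (TPC1, OSCA1, MCA1 and MCA2) or of the 3 matched CAMTA genes, which code for calmodulin-binding transcription activators.

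Listed genes among channels, pumps and exchangers were higher. Only 1.57% of protein-coding loci were listed as lower, so the absence of a lower gene among so few is not a result. The share listed as higher was 3.11%, the background for the counts below, which are small and were not tested. Of 20 cyclic nucleotide-gated channels 2 were higher, CNGC19 and CNGC13, and of 20 glutamate receptor-like channels 2 were higher, GLR2.5 at 1.57 and GLR2.7 at 1.08 in the authors' deposited table. Among 14 calcium pumps matched of 17 names, 3 were higher (21.4%) and 11 not listed. Of 9 matched cation exchangers, which load calcium and other cations into the vacuole in exchange for protons, 2 were higher (22.2%), CAX3 at 1.25 (p = 2.14e-57) and CAX4 at 1.08 (p = 4.06e-07) in the authors' deposited table. Of 8 annexins, proteins that bind membranes in the presence of calcium, 2 were higher (25.0%) and 6 were not listed. ANN4 stood at 1.24 and ANN3 at 1.18 in the authors' deposited table.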

How the data were processed

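Per the labels, RNA was sequenced from 2 libraries each of sams3 and L119. Bisulfite libraries, 1 of each genotype, were not analysed here. The log2 fold changes and p-values are those deposited by the authors for sams3 over L119. Per the file headers, genes changed at least 2-fold with p below 0.0001. An adjustment of p is neither stated nor denied there. Tools and build in the submitters' processing notes are edgeR, Bowtie2, Bismark and TAIR10, with no versions. The depth is unknown. A table headed as transposable elements that rose was identical to the list of higher genes and was not used.

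Members were found by text in the deposited descriptions. All 14, and 1335 of 1336 listed genes, matched the RefSeq table of TAIR10.1, used for names, chromosomes and neighbours. Ranks are within all listed genes of a direction. No test was made, and counts are set beside those of all listed genes. The planned edgeR test and searches of promoters and proteins were not run, for want of counts and sequences used here. The rule for the genes in the text allowed every member to be described singly. The members, lists and comparisons were chosen with earlier results of these data known. The rule was checked on simulated descriptions. Python 3.11.15, pandas 2.3.3, numpy 2.4.6 and matplotlib 3.10.9 were used.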

Additional observations from a re-analysis of the deposited data

How the results depend on the processing

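The main counts were 13 higher and 1 lower, with a median log2 of 1.33 over all 14. Among genes changed at least 4-fold (log2 of 2), 3 were higher and 0 lower. With EF-hand accessions only, 7 were higher and 1 lower. Without the exclusion of kinases and transporters, 20 were higher and 5 lower. Of those 25, the exclusion had taken out 7 higher and 4 lower genes. The lean to rises over the 66.9% of all listed genes was therefore weaker without the exclusion. With only genes that have a CAM, CML, CBL or CPK name in the reference, 4 were higher and 0 lower. AT3G01830, which has no symbol there, could not be counted in that setting. These differences in number follow from which genes each setting keeps. A p below 1e-06, or below 1e-10 (chosen after the data were seen), removed CAM8 and left 12 and 1. Counting adjacent members once could change nothing, since none were adjacent. The median ranged from 1.15 without the exclusion to 2.04 among genes changed at least 4-fold, where the cut itself raises it. It changed sign in no setting run. A change of sign was hardly possible, since 20 of the 25 genes that meet the terms were higher. No paired analysis was possible because no values per library were used. For the same reason leaving out a replicate, another normalization, a pseudocount and a filter on low values were not run. Alternatives for EF-hand loops and promoter motifs were not run, for want of sequences used here.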

Other observations

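Calcium-binding genes outside the group were looked for after the values had been seen, by the words calcium ion binding in the deposited descriptions. There were 5, against a background where 66.9% of all listed genes were higher. Of the 5, 4 were higher and 1 lower in the authors' deposited table, and so few are not a result. Besides the annexins ANN4 and ANN3, those higher were DGK1, a diacylglycerol kinase (log2 1.11, p = 8.61e-52), and RD20, a caleosin known as a marker of dehydration (1.09, p = 2.92e-21), in the authors' deposited table. The lower gene was PSBP-2, annotated as a subunit of photosystem II, at -1.31 in the authors' deposited table (p = 3.51e-12). The 2 annexin genes have adjacent locus numbers (AT2G38750 and AT2G38760).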
